A study of Mus musculus with 6 samples.

Results

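A set of 10 long noncoding RNAs was chosen by gene symbol from the raw count table: the nuclear RNAs Malat1 and Neat1, the imprinted RNAs Kcnq1ot1, H19 and Meg3, and the snoRNA host RNAs Gas5, Snhg1, Snhg3, Snhg8 and Snhg12. Of these 10 genes, 7 were among the 10616 genes of the table (Malat1, Neat1 and all 5 snoRNA hosts). Kcnq1ot1, H19 and Meg3, each transcribed from an imprinted locus, were not analysed here. The libraries came from KPC, a line of mouse pancreatic ductal adenocarcinoma cells, infected with a pLKO.1 lentivirus and selected with puromycin. One group carried an shRNA that knocks down Brca2 (shBrca2, 3 libraries) and the other a non-targeting shRNA (shControl, 3 libraries). For each library 10000 living cells were sorted, and poly(A) RNA was captured and sequenced from its 3' end. How many hairpins or clones stand behind a group is not given in the sources used here. What a replicate was is not clear, since a legend of the study counts mice for these libraries while describing cultured cells, so p-values measure only the spread between these libraries, which may be technical. Replicate numbers were given in sample order and only name the libraries.

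Long noncoding RNAs are transcribed and usually spliced like mRNAs but encode no known protein. Malat1 and Neat1 stay in the nucleus, where Malat1 collects in nuclear speckles and Neat1 forms the scaffold of paraspeckles. snoRNA host genes carry small nucleolar RNAs in their introns. These snoRNAs guide the modification and processing of ribosomal RNA, and the spliced host RNA that is left over is exported and usually degraded while it is being translated, by nonsense-mediated decay. Many hosts begin with a row of pyrimidines, the 5' terminal oligopyrimidine (TOP) tract that they share with ribosomal protein mRNAs. Host RNAs are known to accumulate when growth or translation is arrested, which gave Gas5 (growth arrest specific 5) its name.

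Depth and library identity were examined first. Total counts ranged from 1519340 to 2452467 per library, and the 7 RNAs together took from 0.173% to 0.210% of them. Brca2, the targeted gene, was lower in every shBrca2 library (10, 11 and 14 counts) than in any shControl library (33, 52 and 33 counts), and passed the DESeq2 likelihood ratio test at an adjusted p of 0.0290 (log2 fold change -1.61). In bulk libraries, fewer cells with an RNA and less of it per cell cannot be told apart. The Brca2 call was lost without shBrca2 replicate 2 (adjusted p = 0.152), without shBrca2 replicate 3 (0.233) and without shControl replicate 2 (0.371). DESeq2 gave Brca2 no adjusted p with TMM factors, on genes that reached 10 counts in 3 or more libraries, or with 1 surrogate variable. The keratins Krt8, Krt18 and Krt19 were abundant, with base means (mean normalized count over all libraries) of 2909, 9184 and 4227. The epithelial adhesion gene Cdh1 had a base mean of 911 and Muc1 one of 220. Epcam, also an epithelial adhesion gene, was near the bottom of the table at 6.52. Of 14 marker genes of fibroblasts, immune cells and endothelium, 3 were in the table (Col1a2, Thy1 and Cd68), each with a base mean of at most 15.6. Sox9, a ductal transcription factor, was the 1 called gene of the 7 ductal markers (log2 fold change 1.20), where 1.27% of all genes tested were called. Sox9 lost the call without shBrca2 replicate 2 or 3 and without shControl replicate 1 or 2. The first principal component of the genes with a mean count of at least 10 took 40.9% of the variance. Its scores were scaled to a sum of squares of 1, with the sign set so that shControl replicate 3 was positive. Scores were -0.42, 0.02 and -0.43 in shBrca2 and -0.18, 0.26 and 0.74 in shControl, so the groups overlapped through shBrca2 replicate 2 and shControl replicate 1, and shControl replicate 3 stood farthest out.

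The 7 RNAs came from 5 loci (positions on GRCm38.p6, the RefSeq release of mm10, the build named in the submitters' processing notes). Malat1 (chromosome 19, 5795690 to 5802672) and Neat1 (chromosome 19, 5824708 to 5845480) lie 22.0 kb apart on the minus strand. Snhg12 (chromosome 4, 132308678 to 132311024, plus strand) and Snhg3 (chromosome 4, 132351933 to 132353686, minus strand) lie 40.9 kb apart. Gas5 is on chromosome 1 (161034601 to 161038539, plus strand), Snhg8 on chromosome 3 (123507552 to 123508336, minus strand) and Snhg1 on chromosome 19 (8723487 to 8726326, plus strand). By the GENCODE vM39 annotation, 9 snoRNA genes lie within Gas5, 8 within Snhg1, 4 within Snhg12, 2 within Snhg3 and 1 within Snhg8. Those named in the annotation are Snord47, Snord78 and Snord80 in Gas5 and Snord22 in Snhg1, all of the box C/D class. Snhg12 holds both classes, the box C/D gene Snord99 and the H/ACA genes Snora16a, Snora44 and Snora61, and Snhg3 (Snora73a and Snora73b) and Snhg8 (Snora24) hold H/ACA genes. The snoRNAs themselves have no poly(A) tail, and the counts described here are those of the host RNAs.

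Start sites are shown because the TOP tract is the feature that the hosts are known to share. Each sequence runs from 10 bases before to 20 bases from the RefSeq start on, read 5' to 3' on the gene's own strand, and the capitals mark the pyrimidines (C or T) that follow each other without a break from the start base. An entry was found for 6 of the 7 RNAs, and Neat1 had none.

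Gas5, downstream start, chr1:161035156-161035185, plus strand: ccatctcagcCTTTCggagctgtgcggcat
Snhg8, chr3:123508317-123508346, minus strand: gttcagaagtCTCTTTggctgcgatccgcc
Snhg12, chr4:132308668-132308697, plus strand: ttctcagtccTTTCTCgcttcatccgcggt
Snhg1, chr19:8723477-8723506, plus strand: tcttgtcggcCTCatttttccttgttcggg
Snhg3, chr4:132353667-132353696, minus strand: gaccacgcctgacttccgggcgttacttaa
Malat1, chr19:5802653-5802682, minus strand: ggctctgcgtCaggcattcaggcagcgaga

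The run of pyrimidines was 6 bases long at Snhg8 and Snhg12, 5 at the downstream Gas5 start and 3 at Snhg1. Neither Snhg3 nor the upstream Gas5 start had a pyrimidine as its first base, and Malat1 had a run of 1. A run of at least 4 was found at 6.9% of all 32851 RefSeq promoter entries, counted in the same way on the strand of the gene. A match of letters is a description of the annotated start and not a measured initiation site.

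The ends of the transcripts are shown because a 3' end library counts an RNA only where oligo(dT) can hold it. Below are the last 60 bases of a GENCODE vM39 transcript of each RNA, the longest one in which a polyadenylation signal (AATAAA or ATTAAA, searched on the transcript strand) ends 10 to 30 bases before the end, and the capitals mark that signal.

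Gas5-293: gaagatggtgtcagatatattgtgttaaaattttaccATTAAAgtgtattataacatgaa
Snhg1-227: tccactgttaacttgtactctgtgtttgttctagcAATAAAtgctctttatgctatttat
Snhg3-202: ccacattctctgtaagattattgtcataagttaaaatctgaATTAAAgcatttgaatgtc
Snhg8-202: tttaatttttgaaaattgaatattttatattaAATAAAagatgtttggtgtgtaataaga
Snhg12-219: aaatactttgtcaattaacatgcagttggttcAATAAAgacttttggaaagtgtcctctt
Neat1-216: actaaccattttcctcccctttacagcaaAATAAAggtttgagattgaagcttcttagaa
Malat1-201: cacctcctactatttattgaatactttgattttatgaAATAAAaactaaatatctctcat

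Such a signal stood in the last 60 bases of 228 of 229 annotated Gas5 transcripts, 31 of 35 Snhg1, 47 of 48 Snhg12 and 8 of 8 Snhg8 transcripts, against 61.7% of 152099 annotated lncRNA transcripts. For Snhg3 it was 3 of 5, for Malat1 9 of 23 and for Neat1 6 of 24. The nuclear pair has a second kind of end. The mature Malat1 RNA and the long Neat1 isoform are cut by RNase P and keep no poly(A) tail, and instead finish in an A tract that is encoded in the genome and folds into a triple helix with U-rich motifs upstream. The 60 bases up to and including this tract are given next, with the A tract and the GCAAAA after it in capitals.

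Malat1-201, internal: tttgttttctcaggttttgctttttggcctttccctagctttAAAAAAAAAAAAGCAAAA
Neat1-201, 3' end: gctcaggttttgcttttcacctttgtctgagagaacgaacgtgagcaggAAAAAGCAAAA

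In Malat1-201 the tract holds 12 A in a row and ends 293 bases before the annotated end, and in the long Neat1 transcript (22397 bases) it is the end itself. The table gives 1 count per gene symbol, so which of these ends was captured was not measured and the short and long Neat1 isoforms cannot be told apart.

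How the abundance of the 7 RNAs ranked in the table was then asked. Counts from 3' end libraries do not scale with transcript length, and the ranks below place counts in the table without comparing molecules between genes. Gas5 had rank 174 of 10616 by base mean, Neat1 319, Snhg8 555, Snhg1 1841, Malat1 2056, Snhg12 3147 and Snhg3 4021. All 7 were above the median base mean of the 9997 genes tested (64.1). Malat1 is often among the most abundant RNAs of a cell, but here it took 0.00953% of all counts, against 0.0473% for Neat1 and 0.0780% for Gas5.

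To ask whether knockdown of Brca2 moved these RNAs, their normalized counts (counts divided by DESeq2 size factors) were compared between the groups. None of the 7 was called by the DESeq2 likelihood ratio test (adjusted p under 0.1, absolute log2 fold change over 0.5, base mean over 5), where 1.27% of the 9997 genes tested were called. The count was also 0 by edgeR, which called 1.33% of its genes, and 0 of the 7 had an unadjusted p under 0.05 by either tool, against 8.66% of all genes tested in DESeq2. Of the 7, 3 had a log2 fold change above 0 and 4 below, with a median of -0.04 beside -0.00094 over all genes tested. A gene that misses the threshold is not shown to be equal in both groups, so the interval of each difference is given.

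**Figure D1:**
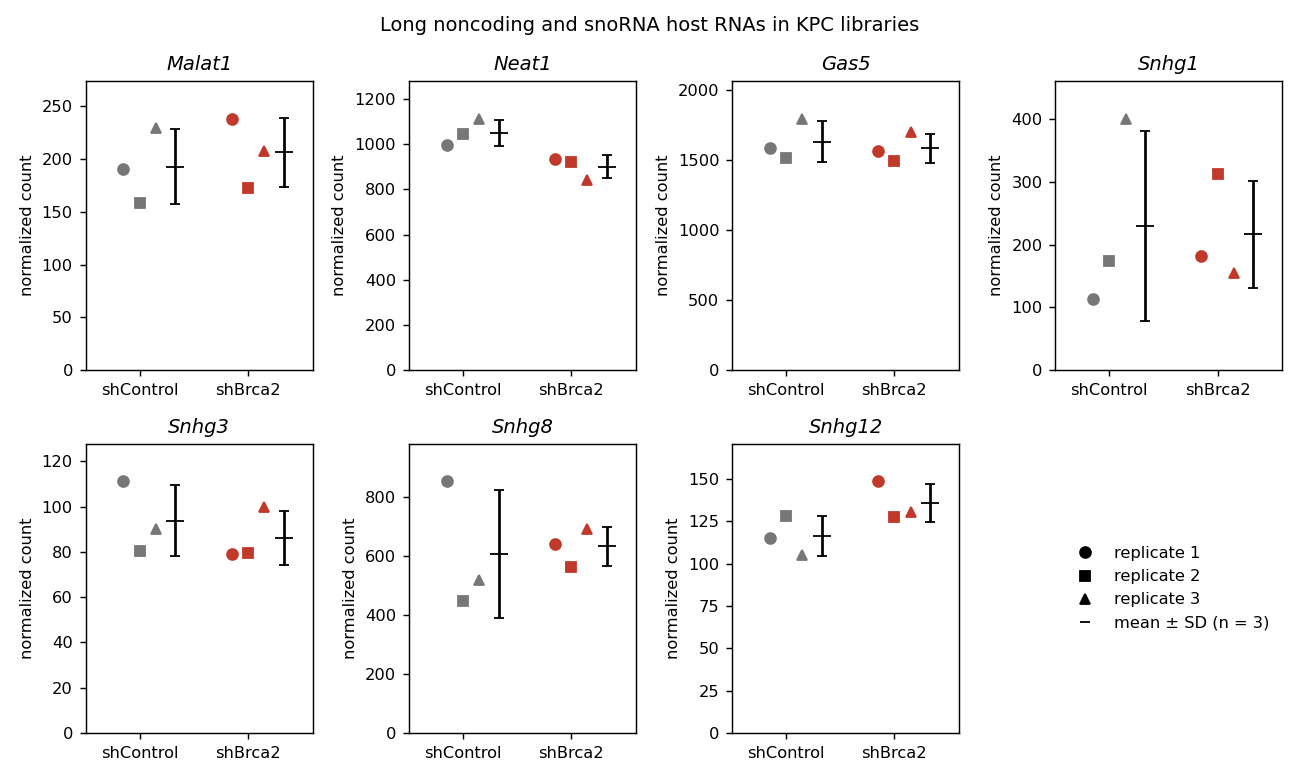
Normalized count (vertical axis, from 0) of each of the 7 RNAs in the 3 shControl (grey) and 3 shBrca2 (red) libraries, with the mean ± SD of each group in black. Neat1 is the 1 RNA whose groups do not overlap, and Snhg1 has the widest spread within a group, from 113 to 400 in shControl.

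Neat1, the paraspeckle scaffold, was the RNA with the smallest p. It had 934, 923 and 841 normalized counts in shBrca2 replicates 1 to 3 and 998, 1043 and 1112 in shControl replicates 1 to 3. Every shBrca2 library was below every shControl library, as was so, in one direction or the other, for 20.6% of all genes tested. The means were 899 ± 50.6 and 1051 ± 57.5 (SD, n = 3), and the log2 fold change was -0.23 ± 0.14 (SE), which did not pass the DESeq2 likelihood ratio test (adjusted p = 0.713). The 95% interval ran from 0.708-fold to 1.03-fold. Neat1 overlaps the antisense gene Frmd8os, and the strand setting of the counting is not stated, so reads of the pair cannot be told apart.

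Malat1, the nuclear speckle RNA, varied more within the groups than between them. It had 238, 173 and 208 normalized counts in shBrca2 and 191, 158 and 229 in shControl, so that the groups overlapped fully. The log2 fold change was 0.10 ± 0.21 (SE), with a 95% interval from 0.803-fold to 1.42-fold. Malat1 overlaps annotated genes on the opposite strand (Gm37376 and Gm59785). Although Malat1 and Neat1 are neighbours, the ratio of their counts was not fixed, and Neat1 counted from 3.92 to 6.58 times as much as Malat1. That ratio was 3.92, 5.33 and 4.05 in shBrca2 and 5.23, 6.58 and 4.85 in shControl.

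Gas5, the most counted of the hosts, had an interval about as narrow as that of Neat1. Its normalized counts were 1566, 1495 and 1699 in shBrca2 and 1586, 1516 and 1797 in shControl. The highest library of each group was replicate 3, and the highest of all 6 was 1.20 times the lowest. The log2 fold change was -0.04 ± 0.14 (SE), and the 95% interval reached from 0.805-fold to 1.17-fold. Gas5 overlaps the protein-coding gene Zbtb37, which had a base mean of 8.28, on the opposite strand.

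Snhg12 had the largest positive difference of the 7. It had 148, 128 and 131 normalized counts in shBrca2 and 115, 128 and 105 in shControl, and a single shControl library reached the range of shBrca2. The log2 fold change was 0.22 ± 0.22 (SE, adjusted p = 0.889 by DESeq2), with a 95% interval from 0.867-fold to 1.56-fold. Its neighbour Snhg3, the host of the U17 snoRNAs, had 79.0, 79.4 and 100.1 in shBrca2 and 111.1, 80.5 and 90.0 in shControl. Snhg3 had a log2 fold change of -0.12 ± 0.25 (SE), with a 95% interval from 0.656-fold to 1.30-fold. Snhg3 shares its strand and locus with Rcc1, which encodes the nucleotide exchange factor of the GTPase Ran, so its count is uncertain.

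Snhg8 and Snhg1 were the 2 hosts whose libraries differed most. Snhg8 had 642, 562 and 692 normalized counts in shBrca2 and 852, 447 and 519 in shControl, where the first shControl library was the highest of all and the second the lowest. The group difference was small beside this (log2 fold change 0.06 ± 0.21, SE), with a 95% interval from 0.781-fold to 1.39-fold. Snhg1 had 181, 313 and 155 in shBrca2 and 113, 174 and 400 in shControl, a 3.54-fold range over the 6 libraries that lay wholly within shControl. Its log2 fold change was -0.08 ± 0.61 (SE), and the 95% interval from 0.413-fold to 2.15-fold left a doubling or halving within its bounds. At this spread a moderate difference in Snhg1 was not detectable with 3 libraries per group.

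**Figure D2:**
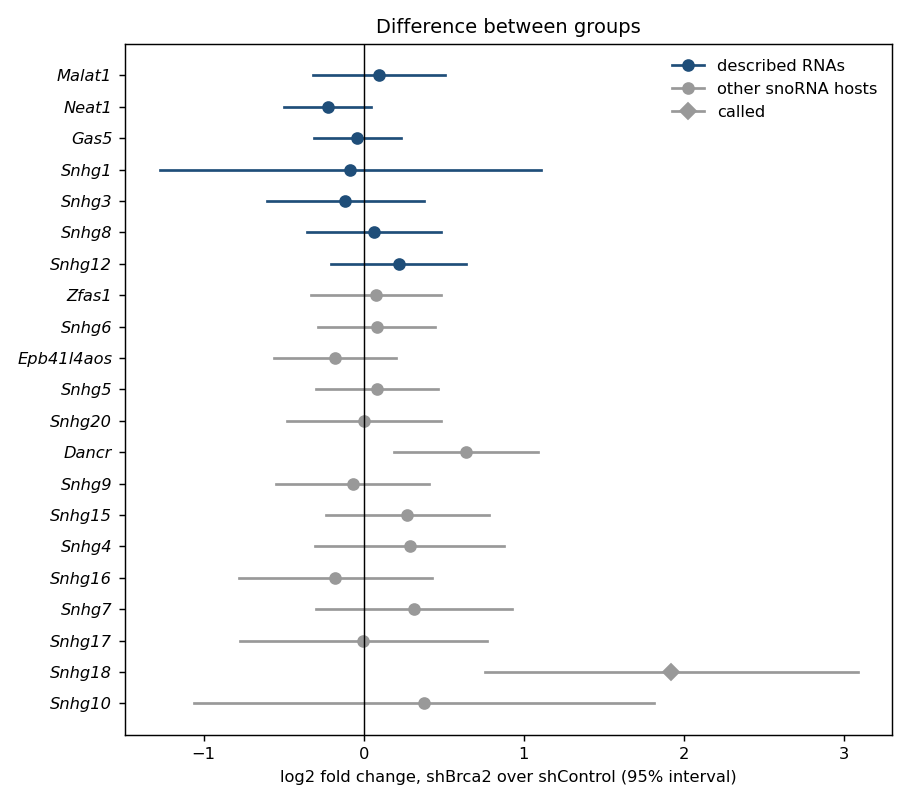
Log2 fold change of shBrca2 over shControl (horizontal axis) with its 95% interval for the 7 RNAs (blue) and 14 other snoRNA host genes (grey), with a diamond where the gene was called. The interval is narrowest for Neat1 and Gas5 and widest of the 7 for Snhg1 (-1.27 to 1.11).

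The spread between libraries was then compared with that of all genes. The gene-wise dispersion (variance beyond counting error) of Snhg1 was 9.97 times the value that the DESeq2 trend gives at its mean, which placed it at percentile 99.4 of all genes. For Snhg8 this ratio was 3.16 (percentile 96.8). Malat1 was close to the trend at 0.898, which was percentile 81.4 of all genes. The other members were under the trend, with 0.326 for Snhg3 (percentile 56.4), 0.315 for Gas5 (55.6) and 0.114 for Neat1 (43.1). The dispersion of Snhg12 lay at the lower limit of the fit. The median ratio over the genes tested was 0.252. Expressed against counting error alone, the chi-square per degree of freedom within the groups was 68.6 for Snhg1, 44.5 for Snhg8, 10.7 for Gas5, 5.94 for Malat1, 3.04 for Neat1, 2.27 for Snhg3 and 1.05 for Snhg12, where 1 is the value of pure counting noise and 1.94 the median over genes. Libraries of the same group differed in Snhg12 by about what counting allows and in Snhg1 and Snhg8 by far more.

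**Figure D3:**
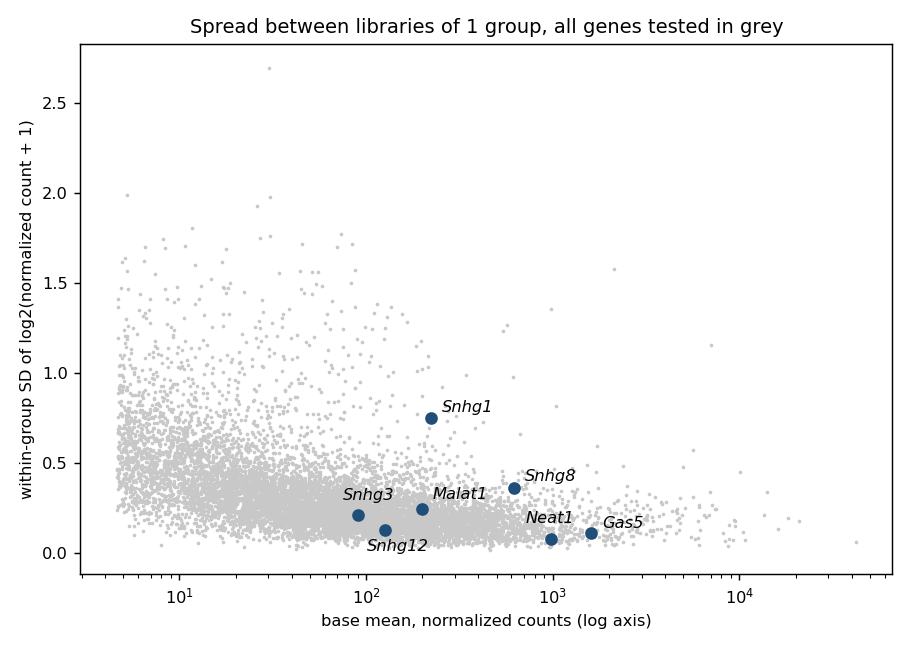
Standard deviation of log2(normalized count + 1) within the groups (vertical axis) against base mean (horizontal log axis) for the 9997 genes tested (grey) and the 7 RNAs (blue). Snhg1 (0.752) and Snhg8 (0.360) lie above most genes of like abundance, and Gas5 (0.111) and Neat1 (0.0804) lie within or below the cloud.

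Snhg1 and Snhg8 did not rise and fall together. Snhg1 was highest in shControl replicate 3 and shBrca2 replicate 2 and lowest in shControl replicate 1, where Snhg8 was highest. The ratio of Snhg1 to Snhg8 counts was 0.282, 0.556 and 0.224 in shBrca2 and 0.133, 0.390 and 0.771 in shControl, so that it differed more between libraries than either RNA did alone. On the first principal component, shControl replicate 3 (0.74), shControl replicate 2 (0.26) and shBrca2 replicate 2 (0.02) had the higher scores. These 3 libraries were the 3 lowest for Snhg8 and held the 2 highest values for Snhg1, and the part of this axis in either RNA was not tested. The summed normalized count of the 5 hosts was steadier, from 2346 to 2911, and Gas5 gave from 57.1% to 64.6% of their counts in each library.

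**Figure D4:**
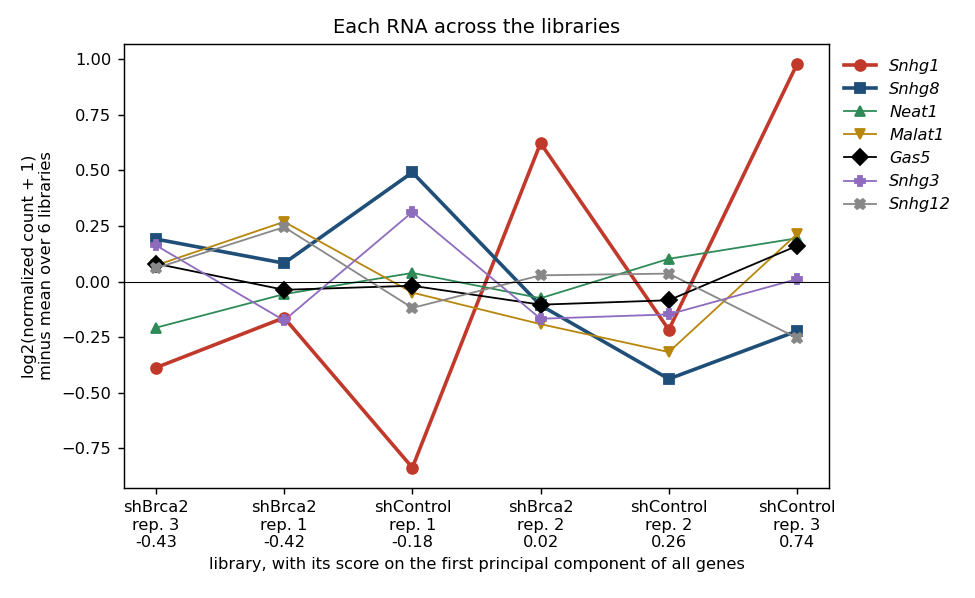
Log2(normalized count + 1) of each RNA minus its mean over the 6 libraries (vertical axis), with the libraries in the order of their score on the first principal component of the genes with a mean count of at least 10 (printed under each name). Snhg1 (red) runs from the lowest point in shControl replicate 1 to the highest in shControl replicate 3, Snhg8 (blue) peaks in shControl replicate 1, and the lines join libraries only to guide the eye.

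Genes with the most similar pattern were sought for the most counted nuclear RNA and the most counted host, among 5681 genes with a base mean of at least 50, by the root mean square difference of centred log2 values over the 6 libraries. For Neat1 these were Gusb, Mrps34 and Tomm22, with differences of 0.0391, 0.0397 and 0.0397. For Gas5 they were Ndufs1, Ap1g1 and Tmem176b, with 0.0278, 0.0324 and 0.0367. For Snhg1, which was added after its values were seen, the nearest gene was Purb (0.108), followed by Api5 (0.234) and Hdac4 (0.277). Purb, a single-stranded DNA and RNA binding protein gene, had 54.5, 83.2 and 41.8 normalized counts in shBrca2 and 29.3, 47.8 and 93.9 in shControl. The same libraries were at the top and the bottom as for Snhg1. Since Purb was chosen for its likeness to Snhg1, this match follows from the search and is no separate result.

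Other snoRNA hosts were read from the same fit. Of 16 further hosts listed, 14 were in the table and tested, 1 was called higher in shBrca2, where 0.77% of all genes tested were, and 0 were called lower, with a median log2 fold change of 0.08. The called gene was Snhg18, with 20, 16 and 26 counts in shBrca2 and 6, 5 and 7 in shControl. It had a base mean of 13.7, and its log2 fold change of 1.92 ± 0.59 (SE) passed the DESeq2 test close to the threshold (adjusted p = 0.0909). The call was lost without shBrca2 replicate 3 (0.511) and without shControl replicate 1 (0.180), 2 (0.538) or 3 (0.172), and no adjusted p was given without shBrca2 replicate 1 or 2. Dancr, also a host and named after its values were seen, had 121, 128 and 159 normalized counts in shBrca2 and 90.9, 80.5 and 92.0 in shControl, without overlap (log2 fold change 0.64 ± 0.23, SE), and did not pass the test (adjusted p = 0.231 by DESeq2). Such a lack of overlap was seen for 20.6% of all genes tested. The most counted of these hosts, Zfas1, Snhg6 and Epb41l4aos, had log2 fold changes of 0.07, 0.08 and -0.18 with adjusted p-values of at least 0.904 by DESeq2. Zfas1 had a dispersion 3.21 times the trend, with its lowest value in shControl replicate 3 (601) and its highest in shControl replicate 1 (1109).

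The proteins that work with these RNAs were examined by list. Of 10 genes for snoRNP core proteins, which bind, modify with and stabilize snoRNAs, 10 were tested and 0 were called, with a median log2 fold change of -0.11, a smallest adjusted p of 0.793 by DESeq2 and 0 with an unadjusted p under 0.05. By edgeR the count was also 0, likewise with 0 at an unadjusted p under 0.05. Over all genes tested, DESeq2 called 1.27% and gave 8.66% an unadjusted p under 0.05. Nhp2, Gar1 and Nop56 were the most counted, with log2 fold changes of -0.13, -0.31 and 0.02. Nop10, a subunit of the H/ACA particle, is named after its values were seen: it had 166, 248 and 124 normalized counts in shBrca2 and 158, 192 and 367 in shControl. Its dispersion was 5.68 times the trend, with its highest values in the 2 libraries that were highest for Snhg1. Gar1, with a dispersion 4.42 times the trend, went the other way. Its highest values, in shControl replicate 1 (1102) and shBrca2 replicate 3 (741), fell in the 2 libraries lowest for Snhg1. A link of either gene with Snhg1 was not tested.

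Of 12 genes for paraspeckle and speckle proteins, 1 was called higher (0.77% of all genes tested were) and 1 lower (0.5%), with a median log2 fold change of 0.01. In DESeq2, 4 of the 12 had an unadjusted p under 0.05, against 8.66% of all genes tested. Groups did not overlap for 4 of the 12, against 20.6% of all genes tested. By edgeR 0 of the 12 were called, with 4 at an unadjusted p under 0.05. Nono, a core paraspeckle protein that binds Neat1, had 268, 246 and 327 normalized counts in shBrca2 and 216, 168 and 125 in shControl. The log2 fold change of Nono was 0.73 ± 0.22 (SE). Its adjusted p was 0.0816 by DESeq2 and 0.145 by edgeR, which did not call it. Srrm2, which encodes a structural protein of nuclear speckles, was lower, with 144, 206 and 135 in shBrca2 and 210, 280 and 307 in shControl. For Srrm2 the log2 fold change was -0.71 ± 0.22 (SE), and the adjusted p was 0.0981 by DESeq2 and 0.152 by edgeR. Each of these 2 calls was lost without shBrca2 replicate 1 or 3 and without shControl replicate 2 or 3 (adjusted p from 0.275 to 0.706), and that of Nono also without shBrca2 replicate 2 (0.125). Both were lost with 1 surrogate variable (adjusted p of 0.177 for Nono and 0.239 for Srrm2 by DESeq2). The Srrm2 call was also lost without DESeq2's own filter on low counts (0.104). Among other paraspeckle proteins, Sfpq had a log2 fold change of -0.03 and Pspc1 one of 0.04. Hnrnpk and Srsf2, also among the most counted of the list, had values of 0.24 and 0.17.

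Of 10 nonsense-mediated decay factors, 1 was called lower (0.5% of all genes tested were) and 0 higher (0.77%), with a median log2 fold change of -0.15. The called gene was Smg5, which promotes the dephosphorylation of the helicase Upf1, with 158, 137 and 89.6 normalized counts in shBrca2 and 197, 232 and 240 in shControl. The log2 fold change of Smg5 was -0.81 ± 0.23 (SE). Its adjusted p was 0.0422 by DESeq2 and 0.114 by edgeR. The call was lost without shBrca2 replicate 2 (0.136) or 3 (0.426) and without shControl replicate 2 (0.434) or 3 (0.225). For Upf1 itself the log2 fold change was -0.18 ± 0.31 (SE), while Upf3a and Smg9, which were counted more, had -0.12 and -0.36. The log2 fold changes did not all go one way: 6 of the 10 were below 0 and 4 above. Groups did not overlap for 4 of the 10, against 20.6% of all genes tested. Of these, Smg5 and Smg9 were lower, while Upf3b and Smg1 had positive values (0.48 and 0.51). Smg9, Upf3b and Smg1 did not pass the test. The summed normalized count of the list, which includes Smg5, was from 697 to 727 in shBrca2 and from 830 to 864 in shControl.

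Genes beside the 7 RNAs and beside the 3 imprinted RNAs were read last. Of 7 genomic neighbours, 0 were called by DESeq2 or edgeR, where 1.27% and 1.33% of all genes tested were. In DESeq2, 1 of the 7 had an unadjusted p under 0.05, against 8.66% of all genes tested. That gene was Rcc1, which shares its locus with Snhg3 and had 106, 114 and 108 normalized counts in shBrca2 and 163, 149 and 143 in shControl, without overlap (log2 fold change -0.47, adjusted p = 0.452 by DESeq2). Groups did not overlap for 3 of the 7, against 20.6% of all genes tested. These were Rcc1, Slc3a2 and Prss12 (base mean 8.34), each lower in shBrca2. Slc3a2, the most counted neighbour, overlaps Snhg1 on the opposite strand and had 691, 711 and 479 in shBrca2 and 890, 717 and 737 in shControl. Its lowest library, shBrca2 replicate 3, and its highest, shControl replicate 1, were the 2 lowest for Snhg1. Trnau1ap beside Snhg12 had a log2 fold change of 0.07.

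Of 13 listed neighbours of H19, Kcnq1ot1 and Meg3, 5 were in the table. Of these, Dio3 was called higher (0.77% of all genes tested were) and 0 were called lower (0.5%). Dio3, the thyroid hormone deiodinase gene of the imprinted Dlk1-Dio3 region that also holds Meg3, had 31, 49 and 74 counts in shBrca2 and 4, 6 and 5 in shControl. The log2 fold change of Dio3 was 3.45 ± 0.52 (SE), it passed the DESeq2 test at an adjusted p of 3.82e-09, and it kept its call in each fit that left out 1 library. Dlk1, Rtl1, Rian and Mirg of the same region, like Meg3, were not analysed here. Next to Kcnq1ot1, Phlda2 had a log2 fold change of -0.24, Tssc4 one of -0.33 and Slc22a18 one of 0.03, and Cd81, the most counted of the 5, had -0.45 with an adjusted p of 0.155 by DESeq2. Of 15 other long noncoding RNAs listed, 7 were in the table, 6 of them were tested and 0 were called by DESeq2 or edgeR, with 0 at an unadjusted p under 0.05 by either. The shares over all genes tested in DESeq2 were 1.27% called and 8.66% with an unadjusted p under 0.05. The most counted of them were Oip5os1, Firre and Mir22hg, at base means of 122, 42.8 and 41.5, and their log2 fold changes were 0.03, 0.15 and 0.12.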

How the data were processed

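Raw read counts per gene symbol were deposited by the authors, 1 column per library, neither normalized nor pooled. The library method was a MARS-seq variant per the labels, and the submitters' processing notes name bcl2fastq, cutadapt, STAR 2.4.2a, HTSeq and DESeq2 with build mm10. The annotation, the strand setting and the use of molecular identifiers are not given in the sources used here, so errors from counts cover counting error only. Every listed gene had at least 6 counts in some library.

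The source name gave each sample's group, and columns were matched to samples by title. All genes were fitted with DESeq2 1.42.0 in R 4.3.3 (median-of-ratios size factors, likelihood ratio test of a model with the group against one without it), the test and thresholds given in the study's methods, with Benjamini-Hochberg adjustment over 9997 genes. Fold changes were not shrunken, and 95% intervals are the log2 fold change ± its SE times the normal quantile. The RNAs, the further gene lists and the tests were chosen with earlier results of these data known. Named genes were all members in the table, called genes of each list and up to 3 others with the highest base mean, and the 3 genes nearest in pattern to the most counted nuclear RNA and host. Dancr, Nop10, Sfpq, Pspc1, Son, Srsf1, Upf1, Upf3b, Smg1, Slc22a18, Zbtb37 and the genes nearest to Snhg1 were added after their values were seen. The same holds for Cdh1, Muc1 and Prss12. Some genes that this rule would name are not reported here. Alternatives were edgeR 4.0.16 (quasi-likelihood test), the Wald test, TMM factors, total counts, 2 filters on low counts, other thresholds and each library left out. One surrogate variable (sva 3.50.0) was added after seeing the data. The fits were tested on simulated counts. Positions and start sequences came from RefSeq (GRCm38.p6), and transcript ends, snoRNA genes and overlaps from GENCODE vM39 (GRCm39), and the authors may have counted with another annotation. Replicates of a group differed by more than counting noise (chi-square per degree of freedom of at least 4.65 for each pair).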

Additional observations from a re-analysis of the deposited data

How the results depend on the processing

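None of the 7 RNAs was called under any of the 15 alternatives run. The stricter adjusted p and the dropped fold change limit only reread the main DESeq2 fit. The smallest adjusted p of the 7 was 0.713 there, so neither could add a call. No paired analysis was possible because the labels number no replicates (the numbers used here follow sample order) and so tie no shBrca2 library to a shControl library. Of 91 fold changes of the 7 RNAs under an alternative, 79 kept their direction and 12 reversed. The Wald test and the fit without DESeq2's own filter on low counts keep the main fold change, so there no reversal was possible. Every reversal came with 1 surrogate variable or with 1 library left out. With 1 surrogate variable, chosen after seeing the data, Snhg1 moved from -0.08 to 0.58 (adjusted p = 0.230 by DESeq2) and Snhg8 from 0.06 to -0.10. With any 1 of the 6 libraries left out, the log2 fold change ranged from -0.45 to 0.58 for Snhg1, from -0.12 to 0.39 for Snhg8, from -0.030 to 0.24 for Malat1, from -0.092 to 0.031 for Gas5 and from -0.24 to 0.021 for Snhg3. The value of 0.58 for Snhg1 came without shControl replicate 3 and that of -0.45 without shBrca2 replicate 2; the cause of these reversals was not tested. Neat1 stayed between -0.26 and -0.18 and Snhg12 between 0.15 and 0.30 in all alternatives.

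Of all genes, 127 were called, and from 47 to 140 with 1 library left out (47 without shBrca2 replicate 3, 55 without shControl replicate 2, 81 without shBrca2 replicate 1), where fewer samples were fitted. Other snoRNA hosts called numbered 1, and 0 with TMM factors, with total counts, on genes that reached 10 counts in 3 or more libraries and with 1 surrogate variable, where DESeq2 gave Snhg18 no adjusted p. The number was also 0 at an adjusted p under 0.05 and from 0 to 0 with 1 library left out. Low depth limits Snhg18 and Brca2, and the spread between libraries limits Snhg1 and Snhg8.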
